A study of Saccharomyces cerevisiae with 21 samples.

Results

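The genes described are the 34 members of the histidine, branched-chain and aromatic amino acid pathways of Saccharomyces cerevisiae. They were chosen by gene symbol, and each was read from the brightest Affymetrix YG-S98 probe set that matched that gene alone. All 34 were measured, out of 5656 genes with such a probe set. The arrays were made from chemostats, anaerobic by their titles, of the laboratory strain CEN.PK113-7D (MATa), a prototroph, kept at pH 5.0 and diluted at 0.10 per h. A chemostat holds growth at the dilution rate and lets the supply of a chosen nutrient limit it, so that the limitations are compared at the same growth rate. There were 7 groups of 3 arrays, 21 arrays in all.

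In the wild type (genotype MATa MAL2-8c SUC2 where given) growth was limited by carbon (C, glucose), nitrogen (N, ammonium), sulfur (S), phosphorus (P) or zinc (Zn). The remaining groups were C- and N-limited cultures of a strain in the same background, in which ura3 is complemented by the plasmid p426(URA3) and the deletions are msn2::loxP and msn4::loxP-kanMX-loxP. It lacks Msn2 and Msn4, the paired activators of the general stress response, so mutant and wild type differ by the plasmid and markers as well as by the deletions. Glucose was the limiting nutrient in the C-limited cultures, with 25 g per L in the wild-type feed, and was left in excess (target 17 g per L) in the other limitations. As a prototroph the strain can make every amino acid itself. The labels describe independent cultures in 6 groups. For the C-limited wild type nothing says so, and its replicate spread may be technical.

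These pathways supply histidine, isoleucine, valine, leucine, tryptophan, phenylalanine and tyrosine. Most of their genes are known targets of the activator Gcn4 under general amino acid control, which raises synthesis when any amino acid runs short. Leucine genes also answer to Leu3, which is switched on by the intermediate made by Leu4 and Leu9. Most steps of isoleucine and valine synthesis take place in mitochondria. Aromatic amino acids come from chorismate, the end of the shikimate pathway, and can also be broken down to fusel alcohols (the Ehrlich pathway) when they serve as nitrogen sources.

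The labels were checked first. For the N-limited wild type the titles say anaerobic and N-limited, and the growth text gives an N-limited medium but also describes glucose limitation and air sparging. On those 3 arrays DAN1 and TIR1, cell wall genes induced without oxygen, were at 2483 to 3055 and 3703 to 5161, within the 1921 to 5136 and 2832 to 14864 of the other 18 arrays. Of further genes induced without oxygen, AAC3 (84.0 to 131, against a median of 225 on the others) lay within the others' range only through an S-limited array at 51.4. ANB1 (1559.8 to 1927) lay below all others (2265 to 4634). Of genes induced with oxygen, COX5A (77.1 to 84.0) lay within the others' range and CYC1 was at the floor, as on all S- and P-limited arrays. Whether air reached the N-limited wild-type cultures was not tested. MSN2 signal was 12.0 to 13.7 on the mutant arrays against 58.0 to 147 in the wild type. MSN4 was 34.5 to 55.6 against 47.3 to 153, which overlap, and URA3 was 1087 to 2473 against 30.5 to 82.4. HIS3, LEU2 and TRP1, common yeast markers, are intact in both strains by the stated genotypes and are treated as pathway genes. The C-limited mutant replicate 1 stood apart from its group: GAP1, a permease gene repressed by good nitrogen sources, was at 1993, 91.9 and 137 in replicates 1 to 3, while N-limited arrays of both strains lay at 2018 to 2477. DAL80, a nitrogen regulator, was at 92.1, 12.0 and 12.0. The array was kept as labelled, and the mutant results of the members in C limitation are given with and without it.

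The wild-type groups limited for C, for N and for Zn each came from a separate deposit, and the 4 remaining groups came from 1 deposit. Deposit and group cannot be told apart in any comparison except P against S limitation and N against C limitation within the mutant. Among the genes described, TRP4 separated by deposit: its signal was 175.8 to 347 on the 12 arrays of the shared deposit and 96.5 to 167 on the other 9. No other member did so, against a background of 0.934% of the 5461 genes tested in either direction. Actin 3' to 5' signal ratios, a sign of RNA integrity, were 1.05 to 1.20 in C limitation, 1.18 to 1.23 in N limitation and 1.18 to 1.67 in the other groups. Their part in the results was not tested. Signals are relative to the trimmed mean of the array, so less of a transcript per cell and more of the others cannot be told apart.

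Across the wild-type limitations the pathways did not move as a block (heat map of the members on all arrays). A moderated F test (limma) found 25 of 34 members differing among the 5 wild-type groups at an adjusted p under 0.05, or 73.5%, where 61.8% of all genes tested did. HIS3, HIS7, ILV1, LEU1, LEU3, TRP1, TRP2, TRP3 and TYR1 did not pass. The ratio of the highest to the lowest group mean had a median of 2.03 over the members and 1.89 over all genes tested. It reached 11.3 for ARO9, 4.00 for ILV6 and 3.12 for ARO1, and was lowest for TRP2, at 1.29. Of the 34 members, 12 had their highest mean in P limitation and 10 in C limitation. The lowest mean fell in S limitation for 10, in N limitation for 9 and in Zn limitation for 8. These counts were not computed for all genes tested, so they have no background. The median within-group SD on the log2 scale was 0.29 over the members and 0.30 over all genes tested, and among members it was widest for ILV6, at 0.54.

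**Figure D1:**
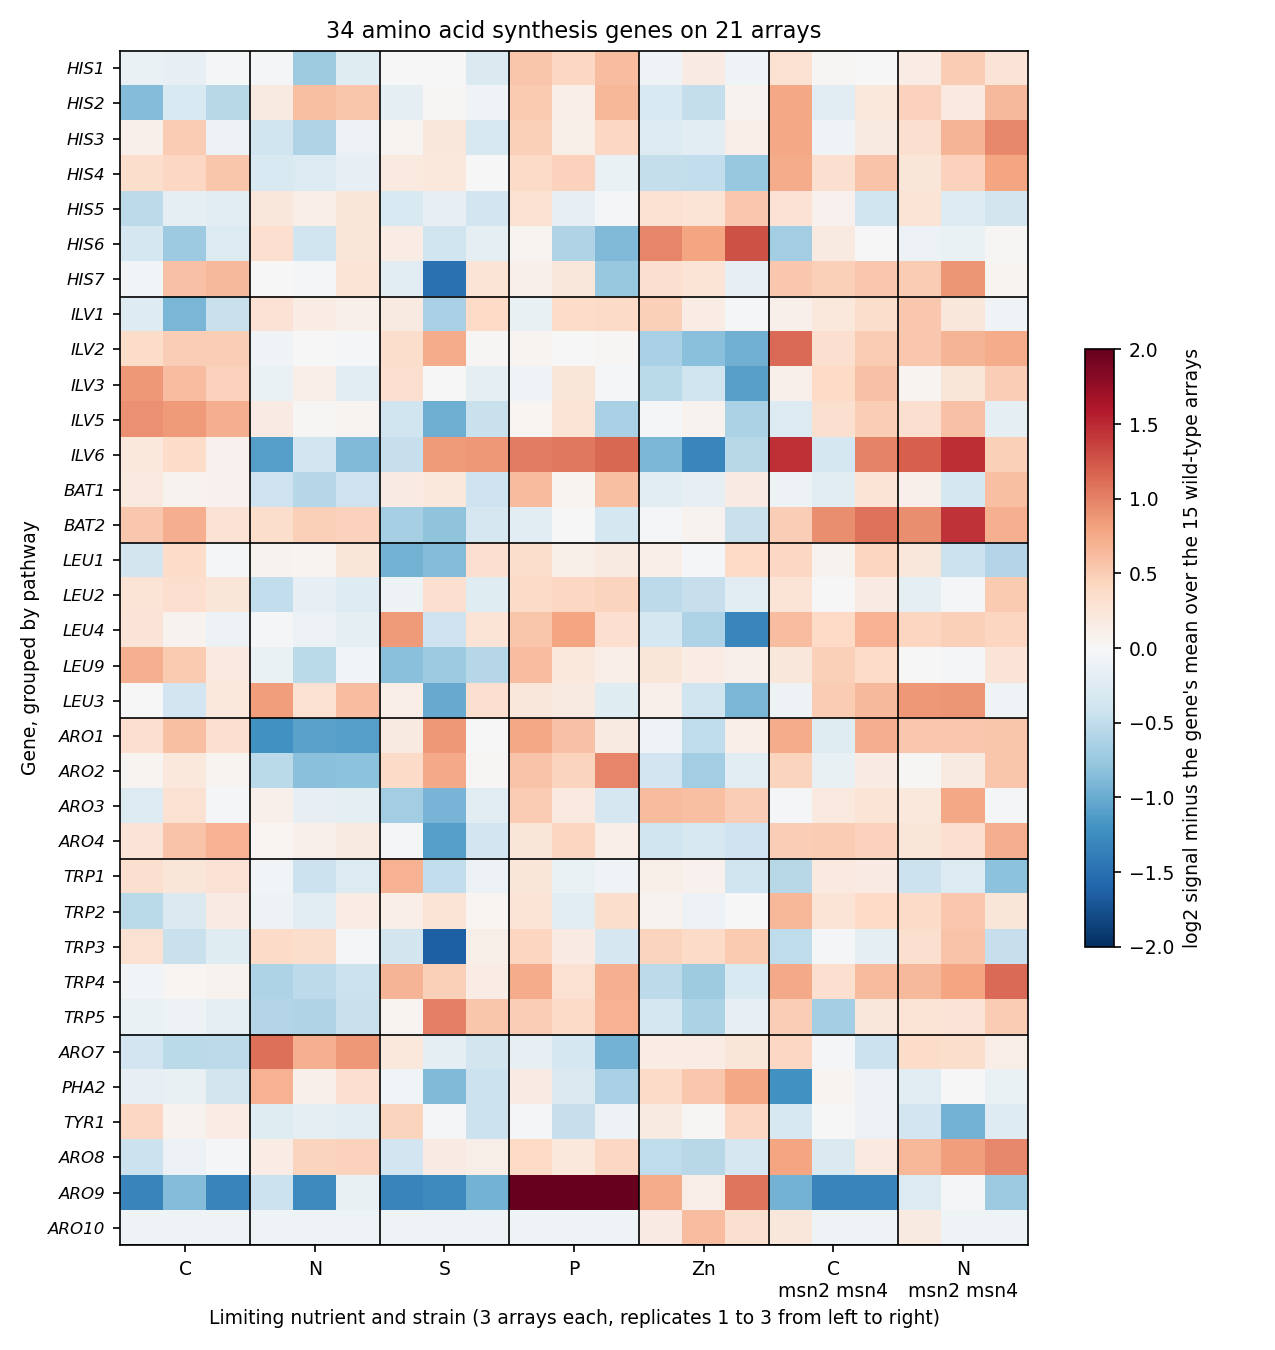
Signal of 34 genes (rows, grouped by pathway) on 21 arrays (columns, 3 per group), as log2 signal minus the gene's mean over the 15 wild-type arrays; red is higher and blue lower. ARO9 is high on the 3 P-limited arrays, ARO1 is low on the 3 N-limited wild-type arrays, and ILV2, ILV3 and ILV6 are low on the 3 Zn-limited arrays.

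Each limitation was then set against C limitation, and a gene counted as called where the fold reached 2 and the adjusted p lay below 0.05. In N limitation 2 members rose and 1 fell, where 6.54% and 3.85% of all genes tested did. The balance turned with quantile normalisation, to 1 higher and 2 lower (4.46% and 5.37% of all genes), and with a common median, to 1 higher and 6 lower (3.25% and 7.40%). In S limitation none rose and 4 fell (background 4.67% higher and 6.17% lower). There 10 of 34 members and 1906 of 5461 genes tested had an unadjusted p under 0.05. P limitation raised 2 and lowered none (3.94% and 7.73%), with 13 of 34 members and 2072 of 5461 genes tested at an unadjusted p under 0.05. In Zn limitation 2 rose and 5 fell, against 9.05% and 5.71%. Lower calls thus took 14.7% of the members in Zn and 11.8% in S limitation. All 4 comparisons share the 3 C-limited arrays. The median log2 change of the members was -0.26 in N, -0.10 in S, 0.12 in P and -0.26 in Zn limitation, where the median of all genes tested was 0.10, -0.05, -0.16 and 0.05. In all, 13 members were called in at least 1 of these comparisons, a count without background because the share of all genes so called was not computed.

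**Figure D2:**
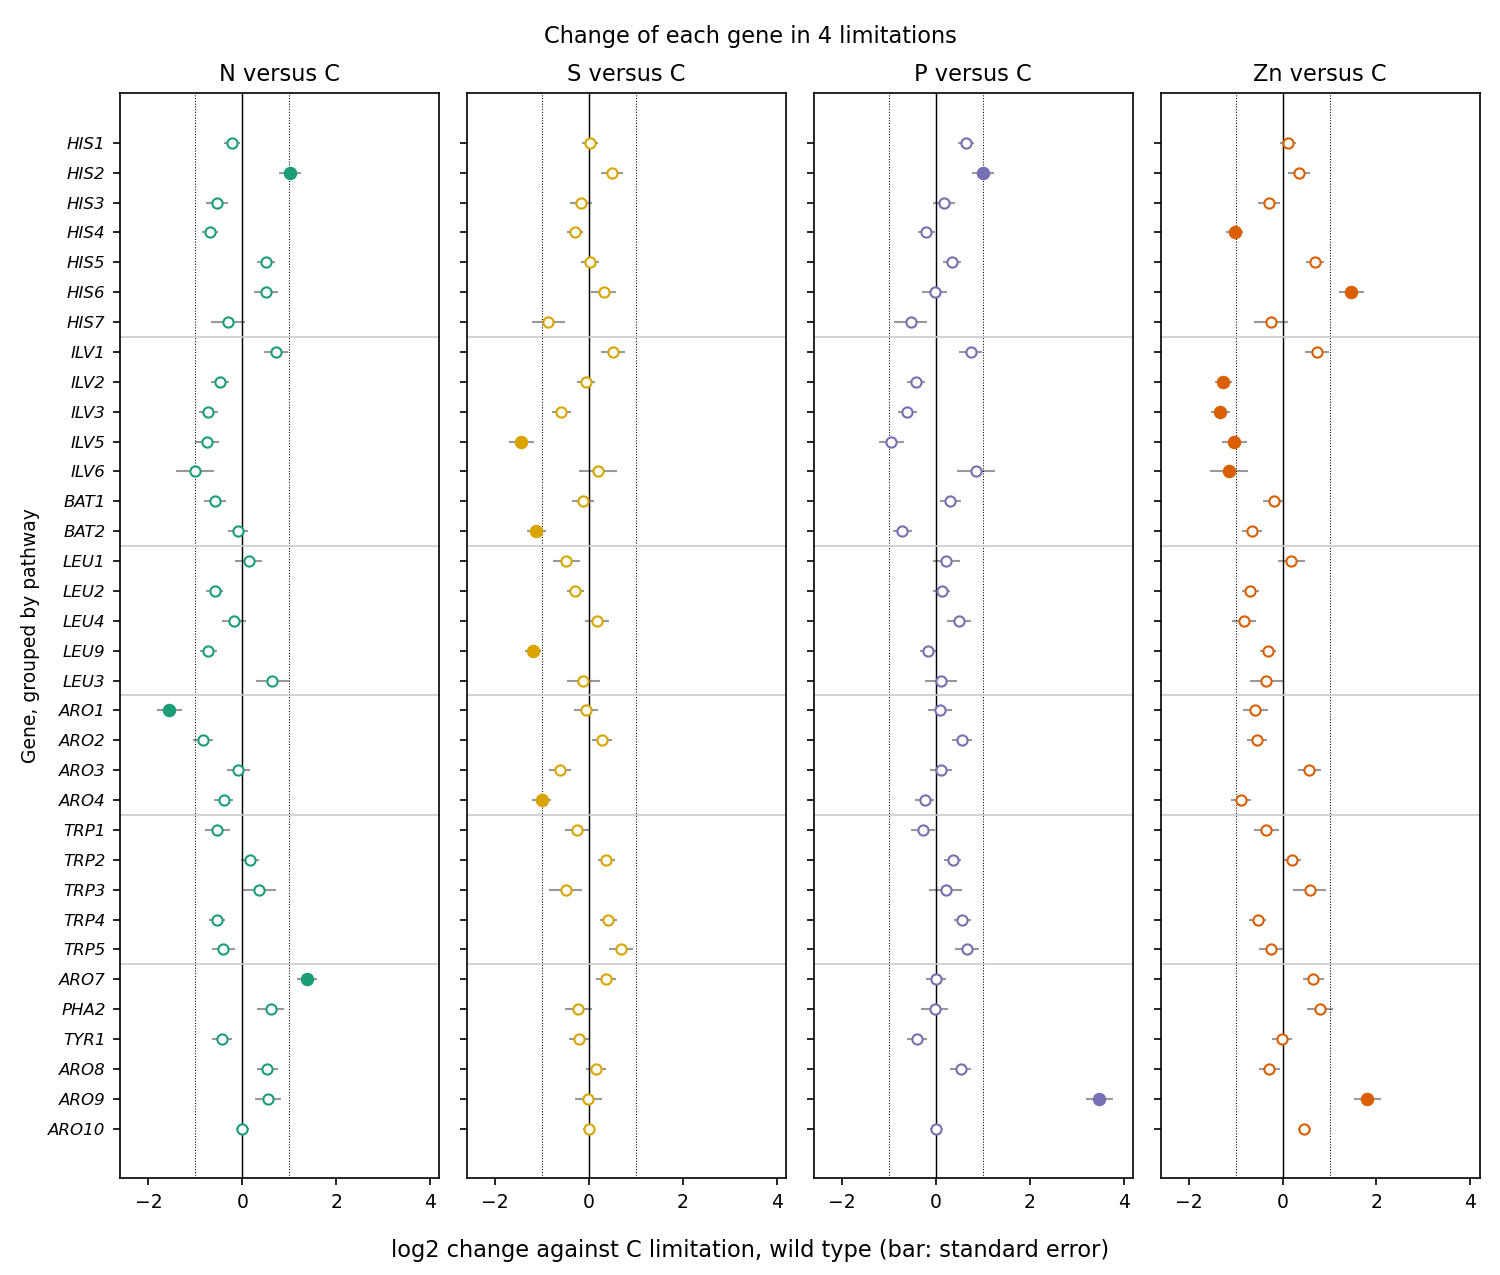
log2 change of each of 34 genes (rows) in 4 limitations against C limitation in the wild type, with the standard error of the limma fit as a bar. Filled points were called (dotted lines mark a fold of 2); ARO9 in P limitation lies farthest from 0, at 3.48, and 4 of the 7 isoleucine and valine genes are filled to the left in Zn limitation.

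The histidine pathway is a linear route from phosphoribosyl pyrophosphate, and its 7 genes went in different directions. HIS4 encodes a multifunctional enzyme for early steps and the last step. Its signal was 1949, 2044 and 2255 in C limitation and 1101, 1083 and 901 in Zn limitation, with no overlap, and it fell by 1.02 on the log2 scale (SE 0.17, adjusted p = 0.00028). That call was lost without C-limited wild-type replicate 3 (-0.96) or Zn-limited replicate 3 (-0.93), with the log2 change in parentheses, and with quantile normalisation (-0.94) or the values as deposited (-0.21). In N limitation HIS4 lay at 1243 to 1361, also below every C-limited array, 1.61-fold lower (adjusted p = 0.009) and under the fold threshold. HIS1, encoding the phosphoribosyltransferase of the first step, was not called in Zn limitation (log2 change 0.11 ± 0.17, adjusted p = 0.66). HIS1 had its highest mean in P limitation, at 1351, 1232 and 1407, above all C- and S-limited arrays (757 to 925). The difference from C limitation was 1.56-fold and that from S limitation 1.54-fold, both under the fold threshold (adjusted p = 0.01 and 0.029).

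HIS6, which encodes an isomerase in the middle of the pathway, rose in Zn limitation. Its signal was 52.2, 45.5 and 63.8 there against 20.8, 16.0 and 21.8 in C limitation, a 2.76-fold rise (log2 change 1.46 ± 0.26, adjusted p = 0.00044). The Zn-limited arrays lay above all other 18 arrays, the highest of which was an N-limited wild-type array at 33.2. At a floor of 50 the call was lost (log2 change 0.14). HIS5, the aminotransferase gene, was also highest in Zn limitation (243 to 289.9), 1.61-fold above C limitation (adjusted p = 0.012), again under the fold threshold. Thus in Zn limitation HIS4 had its lowest wild-type mean and HIS5 and HIS6 their highest.

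HIS2, the histidinol phosphatase gene, was at 76.3, 111 and 94.4 in C limitation. It was at 156, 211 and 204 in N limitation and at 199, 151 and 219 in P limitation, both without overlap with C limitation. The rises were 2.03-fold (log2 change 1.02 ± 0.23, adjusted p = 0.0049) and 2.02-fold (log2 change 1.01 ± 0.23, adjusted p = 0.0044), just past the fold threshold. The N-limitation call was lost without C-limited wild-type replicate 1 (0.88), N-limited wild-type replicate 3 (0.97) or N-limited wild-type replicate 2 (0.94), and with a common median (0.74), quantile normalisation (0.94) or array weights (0.88). The P-limitation call was lost without C-limited wild-type replicate 1 (0.87), P-limited replicate 1 (0.97) or P-limited replicate 3 (0.90), and with the values as deposited (0.33) or array weights (0.91). Without C-limited replicate 1 or P-limited replicate 3, 1 member in place of 2 was called in P limitation. HIS3, the dehydratase gene, and HIS7, the glutamine amidotransferase and cyclase gene, were not called in any wild-type comparison. HIS7 had a wide spread in S limitation, at 170.3, 70.0 and 238.

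In the synthesis of isoleucine and valine, 4 of the 7 genes of this list (ILV2, ILV3, ILV5 and ILV6) were called lower in Zn limitation and none higher. Of all genes tested, 5.71% were called lower and 9.05% higher. BAT1, for the mitochondrial last step, was not called (622 to 802 against 752 to 823 in C limitation). The list's median log2 change was -1.03, against 0.05 for all genes tested. In N limitation the list's median was -0.58, against 0.10, with 6 of 7 changes negative and none called. None of the 7 genes was called between N and Zn limitation. ILV2 encodes the catalytic subunit of acetolactate synthase, the entry to valine and leucine. Its signal was 316, 276 and 252 in Zn limitation and 633, 691 and 689 in C limitation, a 2.39-fold fall (log2 change -1.26 ± 0.19, adjusted p = 8.4e-05). All 3 Zn-limited arrays lay below every other array of the data set, the next lowest being at 467. ILV3 encodes dihydroxyacid dehydratase, an iron-sulfur enzyme, and was at 649.6, 724 and 448 against 1737, 1463 and 1300.3. It fell 2.50-fold (log2 change -1.32 ± 0.20, adjusted p = 9.4e-05), again without overlap.

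ILV5, for acetohydroxyacid reductoisomerase, was at 1187, 1257 and 775 in Zn limitation and 2268, 2182 and 1993 in C limitation. The fall of 2.04-fold (log2 change -1.03 ± 0.27, adjusted p = 0.0069) was lost without C-limited wild-type replicate 1 (-0.99) or Zn-limited replicate 3 (-0.81), and with quantile normalisation (-0.95) or array weights (-0.96). ILV6 encodes the regulatory subunit that makes acetolactate synthase sensitive to valine. It was at 301, 230.3 and 384 against 653, 733 and 604, 2.21-fold lower (log2 change -1.15 ± 0.40, adjusted p = 0.041). This call had the highest adjusted p among the members called. It was lost without C-limited wild-type replicate 1 (-1.16), C-limited wild-type replicate 2 (-1.07), C-limited wild-type replicate 3 (-1.21), Zn-limited replicate 1 (-1.15) or Zn-limited replicate 2 (-0.96), and at a floor of 50 (adjusted p = 0.051) or with no filter (adjusted p = 0.058), although the log2 change stayed below 0 under all of these. With the values as deposited, not rescaled, none of the 4 genes was called in Zn limitation (log2 change -0.45 for ILV2, -0.51 for ILV3, -0.22 for ILV5 and -0.33 for ILV6), while the median of all genes moved up by 0.80.

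**Figure D3:**
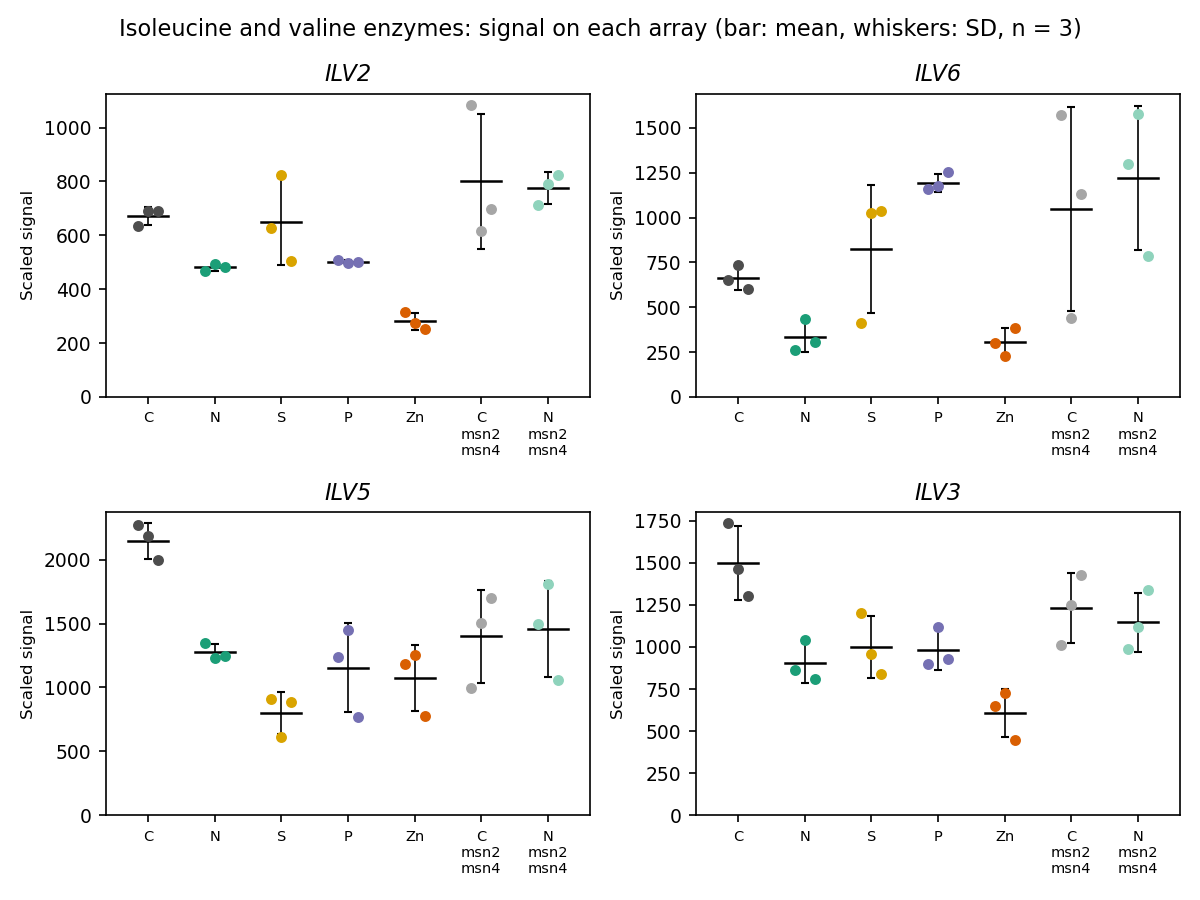
Scaled signal (linear axis from 0) of ILV2, ILV6, ILV5 and ILV3 on each array, by limiting nutrient and strain; points are arrays, horizontal bars means and whiskers SD (n = 3). The Zn-limited points of ILV2, at 252 to 316, lie below all others, and the S-limited points of ILV6 spread from 413 to 1035.

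ILV1, the threonine deaminase gene that opens the isoleucine branch, did not join this fall. It was at 288, 184 and 254 in C limitation and at 337 to 485 in Zn limitation, 1.67-fold higher (adjusted p = 0.033), under the fold threshold. The same held in N and P limitation, with 1.64-fold (adjusted p = 0.045) and 1.67-fold (adjusted p = 0.036) higher means. Of the 8 members whose enzymes are known to work in mitochondria (ILV1, ILV2, ILV3, ILV5, ILV6, BAT1, LEU4 and LEU9, a grouping made after the values were seen), 4 were lower in Zn limitation, 2 in S limitation and none in N or P limitation, where 5.71%, 6.17%, 3.85% and 7.73% of all genes were. None of the 8 was higher in these comparisons.

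ILV5 fell most in S limitation. Its signal was 911, 611 and 883 there, below every C- and N-limited wild-type array, and 2.72-fold lower than in C limitation (log2 change -1.44 ± 0.27, adjusted p = 0.001). ILV3 was 1.51-fold lower (adjusted p = 0.045), under the fold threshold, while ILV2 and ILV6 had log2 changes of -0.07 ± 0.19 and 0.20 ± 0.40 (adjusted p = 0.85 and 0.79). In P limitation ILV5 was 1.93-fold lower (adjusted p = 0.015), also under the threshold. ILV6 stood at 1157, 1176 and 1252 in P limitation, above every C-limited array, with a log2 change of 0.85 ± 0.40 (adjusted p = 0.13). In N limitation it was at 264, 433 and 309, below every C-limited array, and its log2 change of -1.01 ± 0.40 had an adjusted p of 0.077. ILV5, ILV3 and ILV2 had their highest wild-type mean in C limitation.

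The last step of branched-chain synthesis uses paired aminotransferases, Bat1 in mitochondria and Bat2 in the cytosol. BAT2 was at 90.7, 82.0 and 114 in S limitation and 209, 237 and 175 in C limitation, a fall of 2.17-fold (log2 change -1.12 ± 0.21, adjusted p = 0.0011) without overlap. In P and Zn limitation BAT2 was 1.64-fold and 1.57-fold lower (adjusted p = 0.019 and 0.025), both under the fold threshold. BAT1 had log2 changes of -0.13 ± 0.23 in S and -0.58 ± 0.23 in N limitation (adjusted p = 0.76 and 0.074) and was not called. It was lowest in N limitation, at 541, 487 and 539, where BAT2 was at 183, 199 and 199.

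In the leucine branch, LEU9 was the only member called against C limitation. LEU4 and LEU9 encode the isopropylmalate synthases that start the branch. LEU9 was at 28.4, 30.6 and 34.1 in S limitation and 83.3, 73.4 and 58.2 in C limitation. It fell 2.29-fold (log2 change -1.19 ± 0.17, adjusted p = 0.0001), and all S-limited arrays lay below all other arrays of the data set. P limitation held it at 78.4, 58.7 and 55.6, 2.05-fold above S limitation (log2 change 1.04 ± 0.17, adjusted p = 0.00058), within a single deposit. That call was lost without S-limited replicate 1 (0.97) or P-limited replicate 1 (0.88). At a floor of 50, which lies above every S-limited value of LEU9, both LEU9 calls were lost (log2 change -0.50 and 0.34).

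LEU4 was not called in S limitation. Its signal was 1546, 646 and 1041 in S limitation, a wide spread, and 1024, 903 and 789 in C limitation (log2 change 0.17 ± 0.26, adjusted p = 0.7). In Zn limitation LEU4 was at 672, 559 and 349, 1.77-fold lower than in C limitation (adjusted p = 0.022) and under the fold threshold. LEU9 there was at 54.8 to 60.4 (log2 change -0.31 ± 0.17, adjusted p = 0.19). LEU2, the isopropylmalate dehydrogenase gene, was 1.50-fold lower in N limitation (1066 to 1339 against 1774 to 1894) and 1.61-fold lower in Zn limitation (1034 to 1291), both at an adjusted p under 0.05 (0.027 and 0.0083) and under the fold threshold. Dimmer probe sets for LEU2 did not follow this: one had a mean of 616 ± 79.9 (SD, n = 3) in N limitation against 437 ± 116 in C limitation. LEU1, the isomerase gene, and LEU3, the pathway activator, did not pass the F test (adjusted p = 0.16 and 0.14). Over the wild-type arrays LEU1 ranged from 311 to 798 and LEU3 from 19.7 to 70.2.

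Entry to the shikimate pathway is catalysed by Aro3 and Aro4, isozymes inhibited by phenylalanine and tyrosine respectively. ARO4 was at 482, 229.7 and 377 in S limitation and 588, 729.9 and 799 in C limitation, a fall of 2.02-fold (log2 change -1.01 ± 0.21, adjusted p = 0.0024). The call was lost without C-limited wild-type replicate 2 (-0.98), C-limited wild-type replicate 3 (-0.92) or S-limited replicate 2 (-0.71), and with a common median (-0.89) or array weights (-0.95). In Zn limitation ARO4 was tightly grouped at 372, 393 and 369, below every C-limited array and 1.85-fold lower (adjusted p = 0.0035), under the fold threshold. ARO3 had its highest mean there instead, at 100.1, 98.2 and 90.6, against 53.8, 79.6 and 63.7 in C limitation (log2 change 0.57 ± 0.24, adjusted p = 0.082).

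ARO1, the pentafunctional enzyme that carries the middle of the pathway, fell in N limitation. Its signal was 179, 198 and 194 in the N-limited wild type and 527, 631 and 524 in the C-limited wild type. The fall was 2.93-fold (log2 change -1.55 ± 0.26, adjusted p = 0.00045), and every N-limited wild-type array lay below all other arrays. ARO2, encoding chorismate synthase, was at 601, 491 and 493 against 911, 1011 and 911, 1.79-fold lower (adjusted p = 0.009), without overlap and under the fold threshold. In N limitation the 4 genes of this list had a median log2 change of -0.62, against 0.10 for all genes tested. All 4 changes were negative, as were those of 2210 of 5461 genes tested. ARO3 and ARO4 were not called there (log2 change -0.08 and -0.40).

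The tryptophan branch begins with anthranilate synthase, made of Trp2 and the bifunctional Trp3. None of its 5 genes was called against C limitation in any of the 4 comparisons. From 1 to 2 of them had an unadjusted p under 0.05 in each, where 1906 to 2203 of 5461 genes tested did. TRP4, the anthranilate phosphoribosyltransferase gene, was at 103, 110.2 and 118 in N limitation, 153, 162 and 167 in C limitation and 111, 96.5 and 128 in Zn limitation. Its changes against C limitation were -0.54 ± 0.18 in N and -0.53 ± 0.18 in Zn limitation (adjusted p = 0.036 and 0.032), under the fold threshold. In S and P limitation, within the shared deposit, TRP4 lay at 176 to 264. TRP5, tryptophan synthase, was at 973, 1879.6 and 1367 in S limitation and 828 to 868 in C limitation (log2 change 0.68 ± 0.25, adjusted p = 0.062). TRP1, TRP2 and TRP3 did not pass the F test (adjusted p = 0.44, 0.34 and 0.092), and TRP3 ranged from 30.7 to 102 within S limitation. Over the wild-type arrays TRP1 ranged from 123 to 281 and TRP2 from 208 to 384.

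Beyond chorismate, ARO7 rose in N limitation, where ARO1 fell. ARO7 encodes chorismate mutase, which diverts chorismate from tryptophan to phenylalanine and tyrosine. It was at 219.8, 168 and 186 in the N-limited wild type and 78.6, 70.5 and 71.4 in the C-limited wild type, a 2.59-fold rise (log2 change 1.37 ± 0.22, adjusted p = 0.00028). All 3 N-limited wild-type arrays lay above all other arrays. The calls of ARO1 and ARO7 in N limitation held under all 17 alternatives tried. PHA2, the prephenate dehydratase gene of the phenylalanine arm, was at 49.7 to 75.0 against 36.0 to 41.7 (log2 change 0.61 ± 0.29, adjusted p = 0.13), and 60.5 to 79.3 in Zn limitation (1.74-fold higher, adjusted p = 0.045, under the fold threshold). TYR1, the prephenate dehydrogenase gene of the tyrosine arm, did not pass the F test (adjusted p = 0.2) and ranged from 65.8 to 124 over the wild-type arrays.

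The largest change of any member was that of ARO9 in P limitation. ARO9 encodes an aromatic aminotransferase that takes part in aromatic amino acid breakdown and is known to be induced by aromatic amino acids through Aro80. Its signal was 189.6, 128 and 136 in P limitation. It was 12.0, 16.4 and 12.0 in C limitation and 12.0, 12.3 and 15.4 in S limitation, where 2 and 1 arrays were at the floor of 12, the value to which lower signals were raised. The rise was therefore at least 11.2-fold over C limitation (log2 change 3.48 ± 0.28, adjusted p = 1.1e-07) and at least 11.3-fold over S limitation (log2 change 3.50 ± 0.28, adjusted p = 4.9e-08), the latter within a single deposit. All 3 P-limited arrays lay above every other array. ARO9 was the only member called one way against all 4 remaining wild-type limitations, where 35 of 5461 genes (0.641%) were so called higher in P limitation, with a smallest fold of 3.20 over Zn limitation. Without Zn-limited replicate 2, ARO1 in N limitation and HIS6 in Zn limitation were also called against each other group, giving 3 such members. Without any 1 of the N-limited wild-type replicates there were 2. In the fit of all arrays 0.128% of genes were so called lower in N and 2.33% higher in Zn limitation, and the shares without an array were not computed. The calls against C and S limitation held under all 17 alternatives each.

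ARO9 was also raised in Zn limitation, at 49.8, 32.5 and 62.3, at least 3.50-fold above C limitation (log2 change 1.81 ± 0.28, adjusted p = 0.00012), a call lost at a floor of 50 (log2 change 0.11). In N limitation it was at 22.0, 12.3 and 26.9 (log2 change 0.54 ± 0.28, adjusted p = 0.17). The constitutive isozyme gene ARO8 was not called in P limitation and was at 949, 829 and 959.7 against 536, 666 and 708 (log2 change 0.53 ± 0.22, adjusted p = 0.084). ARO8 had its lowest mean in Zn limitation, at 506, 489.6 and 571, while ARO9 was called higher there. ARO10, the decarboxylase of the next breakdown step and another Aro80 target, was at the floor on 16 of 21 arrays, including all P-limited ones. It lay above the floor on all 3 Zn-limited arrays, at 14.4, 19.6 and 16.0, and on replicate 1 of the C- and N-limited mutant, at 15.0 and 14.5. ARO80 itself was at 12.0 to 18.0 over all arrays. ESBP6, also reported as an Aro80 target and looked up after the other values were seen, was at 101, 91.1 and 67.0 in P limitation and 178, 169 and 177 in C limitation, a fall of 2.06-fold (log2 change -1.04 ± 0.21, adjusted p = 0.0018). In S limitation ESBP6 was at 101, 120 and 97.1. It was not called in P against S limitation, within a single deposit (log2 change -0.31).

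**Figure D4:**
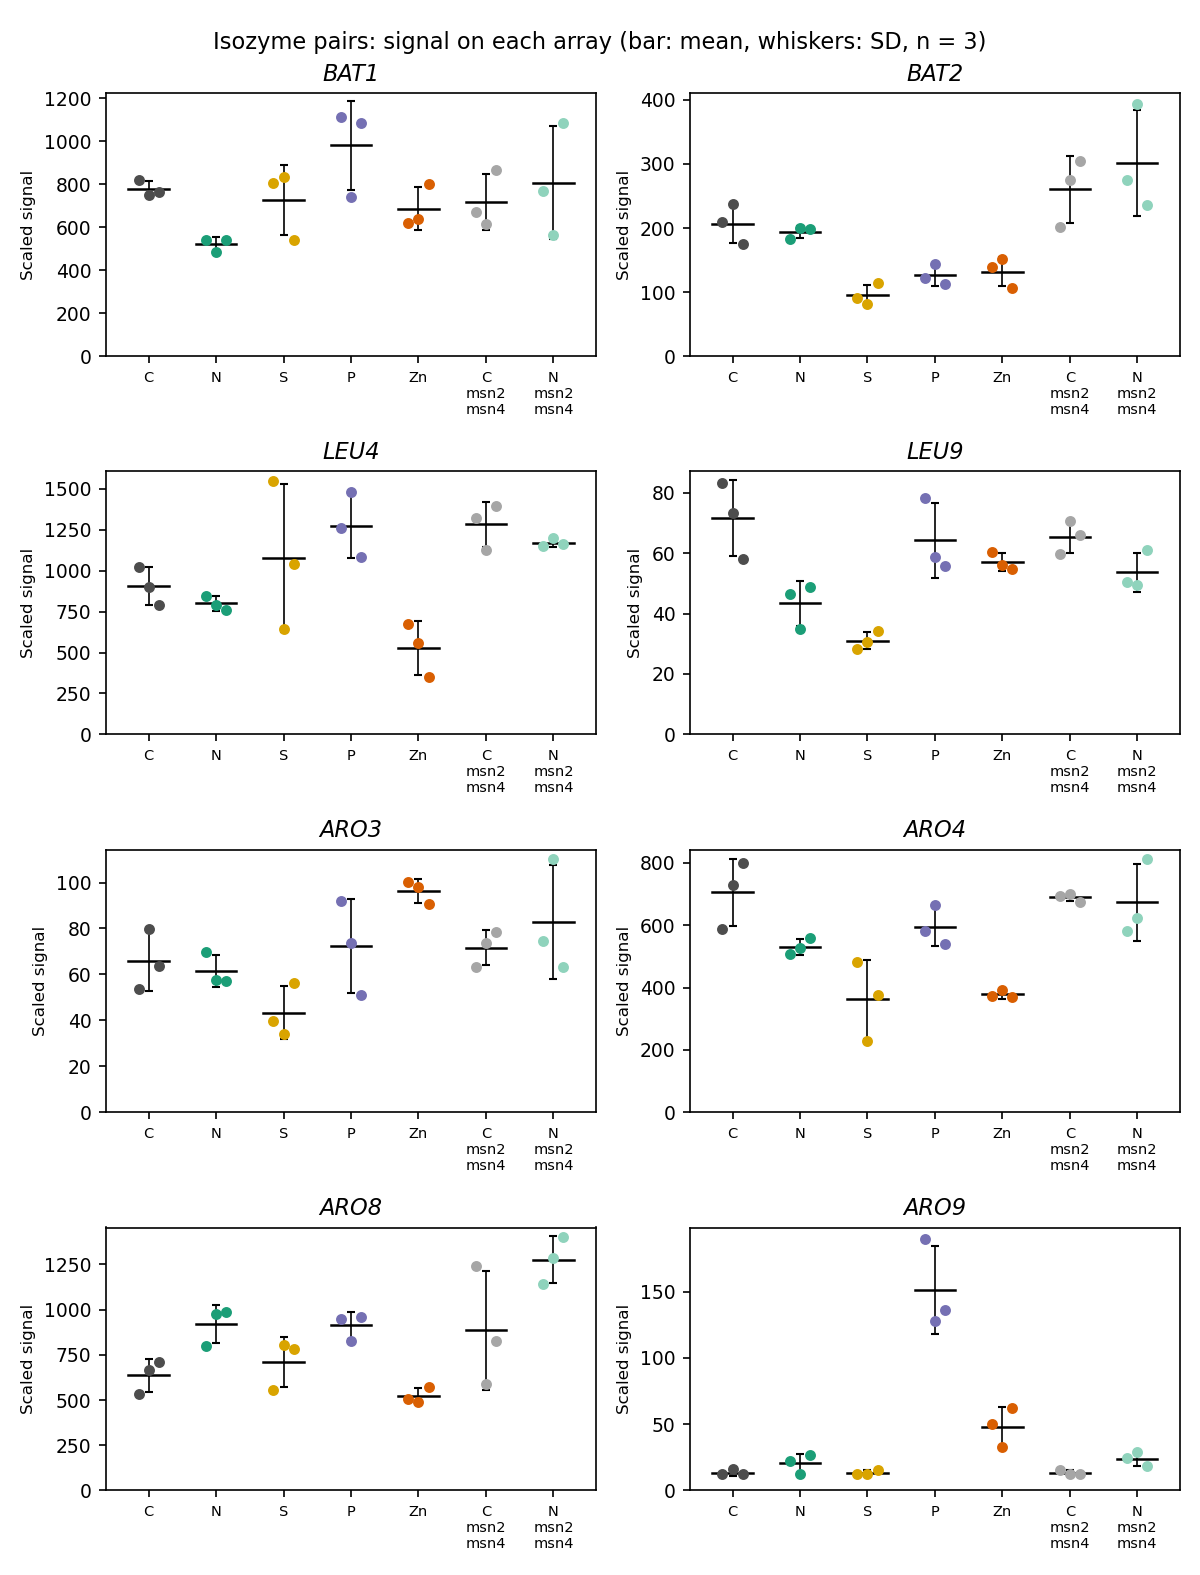
Scaled signal (linear axis from 0, a separate scale for each gene) of 4 isozyme pairs on each array, by limiting nutrient and strain; points are arrays, horizontal bars means and whiskers SD (n = 3). ARO9 reaches 128 to 189.6 in P limitation while ARO8 lies at 829 to 959.7 there, and BAT2, LEU9 and ARO4 have their lowest wild-type means in S limitation.

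The limitations were also compared with each other without C limitation. Between P and S limitation, 2 members were higher in P limitation (ARO9 and LEU9) and none lower, with 1.90% and 2.33% of all genes as background. At an unadjusted p under 0.05 there were 8 of 34 members and 1140 of 5461 genes tested. The members' median log2 change was 0.32 and that of all genes -0.08. Positive changes were found for 26 of 34 members and 2148 of 5461 genes tested. Between N and P limitation, 1 member was higher in N limitation (ARO7) and 6 lower (ILV6, ARO1, ARO2, TRP4, TRP5 and ARO9), where 11.6% of genes were higher and 3.02% lower. ARO2 was 2.63-fold lower in N than in P limitation (adjusted p = 0.00015), with P-limited signals of 1292, 1185 and 1726. ILV6 was 3.64-fold lower (adjusted p = 0.0026).

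Between N and S limitation, BAT2 and ARO7 were higher in N limitation and ILV6, ARO1, ARO2 and TRP5 lower (background 7.86% and 3.26%). BAT2, which fell in S limitation against C limitation, was 2.05-fold higher in N than in S limitation (adjusted p = 0.0022). Between N and Zn limitation ARO9 alone was called, 2.40-fold lower in N limitation (adjusted p = 0.0046, background 4.52% lower and 3.37% higher). ARO1 and HIS6 were also lower in N limitation (1.97- and 1.94-fold), as was ARO10, at the floor there (at least 1.38-fold). ILV2, ARO8 and ARO7 were higher (1.71-, 1.76- and 1.64-fold). These differences had an adjusted p from 0.0088 to 0.03 and stayed under the fold threshold. Against Zn limitation, S limitation had higher ILV2 and ILV6 and lower HIS6, ARO3, TRP3, PHA2 and ARO9 (background 5.15% and 10.6%). P limitation had higher ILV6, LEU4, ARO2, TRP4 and ARO9 and lower HIS6 (background 3.28% and 11.9%). The fold for ILV6 between P and Zn limitation, 4.00 (adjusted p = 0.0013), was the largest among members not near the floor.

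The msn2 msn4 strain was compared with the wild type in the same limitation. In C limitation no member was called, where 4.03% of all genes were. By limma, 6 of 34 members and 1292 of 5461 genes tested had an unadjusted p under 0.05. Without the C-limited mutant replicate 1, 5 members had an unadjusted p under 0.05, a share not computed there for all genes. The count called stayed at 0, with 2.58% of all genes called. Without C-limited mutant replicate 2 it was 1, HIS2, which is 1.78-fold higher (adjusted p = 0.037) over all arrays and 1.49-fold higher (adjusted p = 0.19) without replicate 1. TRP2 was 1.59-fold higher, at 365 to 478 against 208 to 339.7 (adjusted p = 0.037), under the fold threshold, and 1.47-fold higher (adjusted p = 0.15) without mutant replicate 1. On mutant replicate 1, ILV2 was at 1085 and PHA2 at 20.0, against 617 and 699, and 48.2 and 42.9, on replicates 2 and 3.

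In N limitation 4 members rose in the mutant (ARO1, ILV6, TRP4 and HIS3) and none fell, against a background of 2.34% higher and 5.49% lower. The members' median log2 change was 0.37 where that of all genes was -0.14. All 7 isoleucine and valine genes and all 4 chorismate genes had positive changes, with medians of 0.58 and 0.69. Of all genes tested, 2170 of 5461 had a positive change. ARO1 was at 608, 605 and 611 in the mutant and 179, 198 and 194 in the wild type, a 3.19-fold rise (log2 change 1.68 ± 0.26, adjusted p = 0.00033). ILV6 was at 1299, 1578 and 787 against 264, 433 and 309, 3.58-fold higher (log2 change 1.84 ± 0.40, adjusted p = 0.0057). TRP4 was at 249, 274 and 347 against 103, 110.2 and 118, 2.60-fold higher (log2 change 1.38 ± 0.18, adjusted p = 5.4e-05). None of these 3 genes, already picked as called, overlapped between the strains, a share not computed for all genes. For TRP4 the deposits did not overlap either. With the values as deposited, where the median of all genes moved by -0.86, none of the 4 was called (log2 change 0.79 for ARO1, 0.96 for ILV6, 0.50 for TRP4 and 0.14 for HIS3).

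HIS3 was at 297, 381 and 466 in the N-limited mutant and 181, 157 and 221 in the wild type, 2.03-fold higher (log2 change 1.02 ± 0.24, adjusted p = 0.008). Its second, dimmer probe set gave 66.1 ± 11.9 against 55.4 ± 7.80 (SD, n = 3), and the call was lost when both probe sets were averaged (log2 change 0.64). It was also lost with array weights (0.87) and without N-limited wild-type replicate 2 (0.91) or N-limited mutant replicate 3 (0.87). Further genes passed an adjusted p of 0.05 but not the fold threshold. ARO2 was 1.98-fold higher at 885 to 1285 against 491 to 601 (adjusted p = 0.005), and TRP5 1.85-fold higher (adjusted p = 0.022). HIS4, ILV2 and HIS1 were 1.67-, 1.61- and 1.54-fold higher (adjusted p = 0.0086, 0.02 and 0.018). ARO7 had a log2 change of -0.61 ± 0.22 (adjusted p = 0.058), with 113 to 132 in the mutant below the 168 to 219.8 of the wild type.

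**Figure D5:**
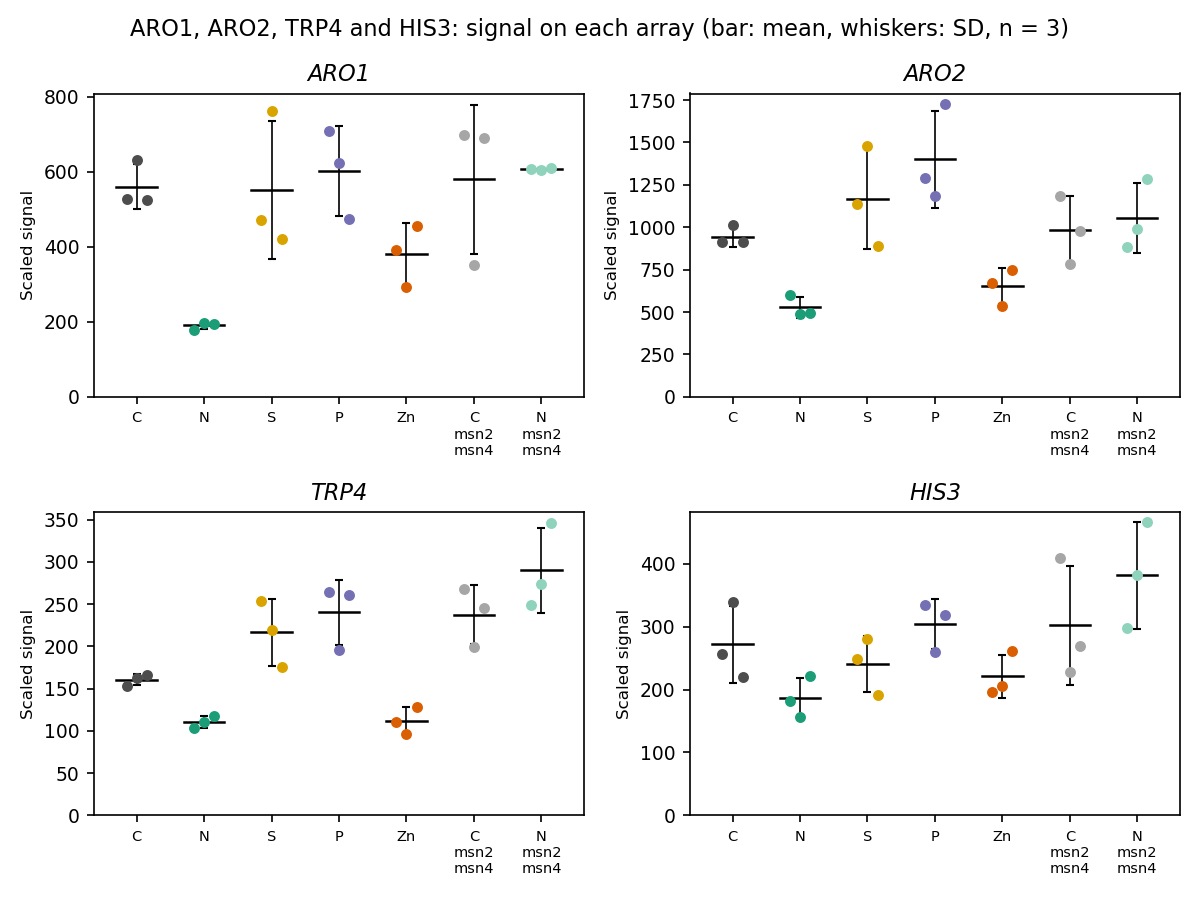
Scaled signal (linear axis from 0) of ARO1, ARO2, TRP4 and HIS3 on each array, by limiting nutrient and strain; points are arrays, horizontal bars means and whiskers SD (n = 3). In the N-limited wild type ARO1 lies at 179 to 198, and in the N-limited mutant at 605 to 611; the mutant and the S- and P-limited groups share a deposit.

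Within the mutant, N and C limitation gave no member call, where 0.0549% of all genes were called. By limma, 2 of 34 members and 570 of 5461 genes tested had an unadjusted p under 0.05. Without the C-limited mutant replicate 1, 6 members had an unadjusted p under 0.05, a share not computed there for all genes. The count called was again 0, with 5.16% of all genes called. ARO8 then had a log2 change of 0.87 ± 0.20 (adjusted p = 0.010), under the fold threshold, and its N-limited mutant signals were 1141, 1286 and 1403. ARO1, which fell in N limitation of the wild type, was at 699, 351 and 691 in the C-limited mutant and 605 to 611 in the N-limited mutant (log2 change 0.14 ± 0.26, adjusted p = 0.94, and 0.30 ± 0.28, adjusted p = 0.59, without that array). ARO7 had a log2 change of 0.30 ± 0.22 there (adjusted p = 0.7), and of 0.51 ± 0.22 (adjusted p = 0.18) without that array. The difference of the mutant's effects between N and C limitation was called for ARO1 alone (log2 change 1.69 ± 0.36, adjusted p = 0.023), where 0.476% of all genes were higher and 1.03% lower. It was lost without C-limited wild-type replicate 2 (1.60), N-limited wild-type replicate 1 (1.64), N-limited wild-type replicate 3 (1.70), N-limited mutant replicate 2 (1.69) or N-limited mutant replicate 3 (1.68), and without C-limited mutant replicate 3 ARO7 was called beside it. Without the C-limited mutant replicate 1 ARO1 was still called (log2 change 1.86 ± 0.37, adjusted p = 0.016).

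Regulators and neighbouring pathways were read for context. Of 8 regulators, GAT1 was called higher in N, S and P limitation (362 to 469, 281 to 471 and 242 to 301, against 87.0 to 100 in C limitation). DAL80 was called higher in N limitation (464 to 501 against 15.1 to 22.0) and lower in the N-limited mutant (132 to 223). Of all genes, 6.54%, 4.67% and 3.94% were higher in N, S and P limitation and 5.49% lower in the N-limited mutant. No other regulator was called. GCN4 transcript, whose product is mainly controlled at translation, was at 2611 to 3155 in C limitation and 1716 to 1938 in Zn limitation, 1.60-fold lower (adjusted p = 0.0042) and under the fold threshold. In N, S and P limitation its log2 changes were -0.04 ± 0.16, 0.08 ± 0.16 and -0.23 ± 0.16, none at an adjusted p under 0.05. Among 22 other genes of general amino acid control, LYS20 fell in N limitation (3.67-fold) and, with ASN1, in Zn limitation (3.08- and 3.57-fold), where ARG8 rose. In S limitation ARG1, ARG3, SER3 and ASN1 fell, and in P limitation ARG1 and ARG3 fell and LYS1 rose. Of all genes tested, 3.85% were called lower in N, 6.17% in S, 7.73% in P and 5.71% in Zn limitation. Called higher were 3.94% in P and 9.05% in Zn limitation.

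Of 9 genes that supply precursors, ZWF1 (glucose-6-phosphate dehydrogenase) rose 3.33-fold in S limitation (background 4.67% higher). OAC1, a mitochondrial carrier known to export the leucine precursor isopropylmalate, fell 2.01-fold there (adjusted p = 0.0031, background 6.17% lower), where LEU9 and ILV5 fell. In Zn limitation TAL1 rose and PRS2 fell (background 9.05% higher and 5.71% lower), and neither N nor P limitation had a call. Of 7 uptake genes, 5 fell in N limitation and 1, GAP1, rose (background 3.85% lower and 6.54% higher). BAP2, a branched-chain permease gene, was lower in every other wild-type limitation than in C limitation, from 3.07-fold in S to 12.1-fold in N limitation. Its C-limited wild-type signals were 342, 337 and 295. In the C-limited mutant BAP2 was also called lower, at 38.2, 49.4 and 66.1, where strain and deposit cannot be told apart. AGP1 was called lower there too, at 73.7, 297 and 448 against 563 to 751 in the wild type (background 1.98% lower). For both genes replicate 1, the array in doubt, was the lowest of the mutant arrays. Their calls without it are not given here. TAT2, the tryptophan permease gene, was at 12.0 to 12.1 in the N-limited wild type and 93.7 to 114 in C limitation, at least 8.77-fold lower (log2 change -3.13 ± 0.34, adjusted p = 1.3e-05).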

How the data were processed

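RNA of 21 chemostat samples was read on Affymetrix YG-S98 arrays. The authors deposited a linear signal intensity per probe set, made with GCOS, version 1.2 for 12 of the arrays, per the labels' protocols and processing notes. The algorithm and scaling are not given in the sources used here. Deposited 2% trimmed means were 150.1 to 150.2 on 12 arrays and 235 to 466 on the other 9, so every array was scaled to the same trimmed mean of 150.18, raised to a floor of 12 and taken to log2. Of 9335 probe sets, 6504 matched 1 gene, 328 several and 2443 none, and 60 were controls. The brightest probe set stood for a gene. Of 5656 genes, 195 never rose above the floor and were not tested, which left 5461.

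Group means over all arrays were estimated in R 4.3.3 by limma (version 3.58.1), with Benjamini-Hochberg adjustment over the genes tested and 3 arrays a group, which limits precision. The fitting was tested on simulated data. All 34 members are named. The members and lists were chosen with earlier results of these data known, and GCN4 and ESBP6 are named outside the rule for other lists, which allowed up to 4 called genes per comparison. The genotype and growth of each group are those of the labels, and the oxygen-regulated genes were looked up after the other values were seen. Alternatives were quantile normalisation, a common median, values as deposited, floors of 1 and 50, no filter, the mean of probe sets, array weights, a replicate block and leaving out each array.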

Additional observations from a re-analysis of the deposited data

Results flagged for a closer look

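The effect of msn2 msn4 on ARO1 differed between the limitations by a test of the difference itself: the log2 change was larger in N than in C limitation by 1.69 ± 0.36 (limma, adjusted p = 0.023). The signal was higher in 3 of 3 mutant than wild-type arrays in N limitation. The groups do not share a deposit within either limitation, so strain and deposit cannot be told apart.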

How the results depend on the processing

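Of 396 values for the 23 member calls under the alternatives, 341 kept their direction and their side of the threshold, 55 kept the direction only and none turned. With a common median, 7 members were called in N against C limitation, 1 higher and 6 lower, 9 in Zn limitation, 2 higher and 7 lower, and 7 in the N-limited mutant, all higher. The shares of all genes called higher and lower were then 3.25% and 7.40% in N, 5.96% and 5.12% in S, 6.01% and 5.01% in P, 6.38% and 9.70% in Zn limitation, 5.01% and 2.45% in the N-limited mutant and 0.950% and 0.457% for the difference of mutant effects. With quantile normalisation, which left 2 higher and 3 lower members in Zn limitation, they were 4.46% and 5.37% in N, 4.84% and 5.50% in P, 7.26% and 7.96% in Zn limitation, 3.78% and 3.36% in the N-limited mutant and 1.05% and 0.899% for the difference. With values as deposited, 9 were called in S, 7 in P and 11 in Zn limitation, 3 in the C-limited mutant and 7 in the N-limited mutant, where all 7 were lower, and 4 members in place of 1 were specific to a limitation, ARO9 not among them. There the shares were 12.4% and 2.74% in N (6.54% and 3.85% after scaling), 0.322% and 1.98% for the difference (0.476% and 1.03%), 1.50% and 29.4% in S (4.67% and 6.17%), 1.14% and 36.6% in P (3.94% and 7.73%), 40.8% and 1.14% in Zn (9.05% and 5.71%), 0.304% and 23.1% in the C-limited mutant (2.05% and 1.98%) and 0.268% and 49.5% in the N-limited mutant (2.34% and 5.49%). At a floor of 50, 4 were called in Zn limitation and 1 in P against S limitation. With array weights, 1 was called in P against C limitation, 1 in N against C limitation within the mutant and 2 for the difference of mutant effects. Quantile normalisation, a common median and array weights each gave 2 members specific to a limitation, ARO1 in N and ARO9 in P limitation. Shares of all genes were not computed at a floor of 50, with array weights or, under any alternative, for genes specific to a limitation. Those counts have no background.

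Leaving out each array in turn gave 2 to 4 members called in N, 3 to 5 in S, 1 to 3 in P and 5 to 7 in Zn limitation, and 1 to 3 in P against S limitation. It gave 0 to 1 in the C-limited mutant, 3 to 5 in the N-limited mutant, 0 within the mutant, 0 to 2 for the difference, 1 to 3 specific members and 24 to 28 by the F test. Shares of all genes called were computed only without C-limited mutant replicate 1, and there not for specific genes or the F test. These ranges thus have no background. Same-numbered arrays share only a number: 24 correlations of their deviations ran from -0.255 to 0.211, and 4 exceeded 0.1. With the replicate number as a block, 2 members were called for the difference of mutant effects, ARO1 higher and ARO7 lower, and ILV6 in Zn limitation was lost (log2 change -1.15, adjusted p = 0.058). The share of all genes called with that block was not computed. Signals near the floor limit what can be said of ARO9 and ARO10.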
